A study of Mus musculus with 3 samples.

Results

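The cytosolic ribosomal protein genes encode the proteins of the large (Rpl) and small (Rps) subunits of the ribosome. Members were all rows whose symbol starts with Rpl or Rps followed by a digit, a or p, leaving out the Rps6k kinases and Rps19bp1, which gave 94 of 31053 genes, 60 of the large and 34 of the small subunit. Of these, 77 were standard forms, 8 were paralog forms such as Rpl22l1, and 9 had pseudogene-like symbols ending in -ps and a number. In at least 1 library 81 members reached 50 CPM (counts per 1000000 UMIs, the molecules counted by their molecular identifiers). The other 13 did not (9 with -ps symbols, Rpl39l, Rpl3l, Rpl10l and Rps27rt), and 2 of them, Rpl36-ps4 and Rpl10l, had 0 UMIs in all 3 libraries.

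Single-cell 10x Genomics libraries were made from methanol-fixed cultures of C57BL/6 mouse cortex, labelled E14.5, with 1 library per group. MIM-Astrocytes were astrocytes moved to MIM, a medium without serum with FGF2 at 20 ng/mL and up to 6 metabolites (the amino acids glycine, cysteine, methionine and threonine, the polyamine putrescine, and S-adenosylmethionine), and were collected by day 5. The labels describe a control culture of the same batch kept in astrocyte medium. Astrocytes stayed in astrocyte medium with 10% serum. NSC were neural stem cells grown as neurospheres in medium without serum but with EGF and FGF2 at 20 ng/mL each. All media held B27 supplement. Which metabolites and which day apply to this library is not given in the labels. The protocol allows a postnatal source with GLAST sorting or differentiation of neurospheres, and the labels do not say which was used. Serum, growth factor, basal medium and metabolites all changed at once between Astrocytes and MIM-Astrocytes, so their parts cannot be told apart.

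Cells make ribosomal proteins in near equal numbers, because each ribosome holds 1 copy of nearly every one, and their mRNAs are among the most abundant in growing cells. These mRNAs start with a run of pyrimidines, the 5′ terminal oligopyrimidine (TOP) tract, through which mTOR signalling and the protein Larp1 control their translation and stability. Neural progenitors that divide need new ribosomes for each daughter cell.

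The sequences around the annotated start are shown for 8 members, chosen because 4 of them (Rpl35, Rplp2, Rpl39, Rps27) differed strongly between libraries, 2 (Rpl15, Rps6) differed little, and the other two (Rps28, Rpl7l1) were the extremes. Each runs from 10 bases before the RefSeq start (GRCm38.p6) to 20 bases from the start on, 5′ to 3′ on the gene's strand. Capitals mark the longest run of C or T bases where it had at least 6 bases.
Rps28: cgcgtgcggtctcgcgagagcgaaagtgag
Rpl39: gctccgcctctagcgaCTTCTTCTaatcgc
Rps27: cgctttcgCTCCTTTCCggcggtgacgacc
Rplp2: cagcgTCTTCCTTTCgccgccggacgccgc
Rpl35: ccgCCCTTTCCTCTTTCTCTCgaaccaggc
Rpl15: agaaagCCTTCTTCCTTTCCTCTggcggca
Rps6: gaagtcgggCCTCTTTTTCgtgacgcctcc
Rpl7l1: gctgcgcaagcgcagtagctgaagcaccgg

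The windows lie at chr17:33824543-33824572 (Rps28, minus strand), chrX:37085203-37085232 (Rpl39, minus strand), chr3:90213629-90213658 (Rps27, minus strand), chr7:141447641-141447670 (Rplp2, plus strand), chr2:39005112-39005141 (Rpl35, minus strand), chr14:18270967-18270996 (Rpl15, minus strand), chr4:86857348-86857377 (Rps6, minus strand) and chr17:46782637-46782666 (Rpl7l1, minus strand). Entries were found for 65 of the 94 members, with 77 starts. A run of at least 6 C or T bases was present on the gene's strand in 41 of these 77 windows (53.2%), against 28.7% of the windows of all 32851 starts. On the other strand such a run was present in 13.0% of the members' windows and 32.0% of all windows. The sequences shown do not stand for the family. Rpl41, Rpl36a and Rpl37, not shown, had log2 ratios of 2.83, 2.83 and 2.72 in MIM-Astrocytes over Astrocytes and no run of at least 6 bases. A missing run, as in Rps28, says only that these letters are not in this window, and a listed start may lie some bases from the start used in these cells.

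The libraries held 50906724 UMIs from 14964 MIM-Astrocytes, 50594420 UMIs from 9818 Astrocytes and 14689259 UMIs from 9145 NSC after filtering, with medians of 3156, 5089 and 1379 UMIs per cell. Cell barcodes shared between any pair of libraries numbered 25 to 43. Of the 8 astrocyte markers (Gfap, Aqp4, S100b, Aldh1l1, Slc1a3, Slc1a2, Gja1 and Aldoc) all had UMIs in each library, with a summed level of 977 CPM in MIM-Astrocytes, 2070.2 CPM in Astrocytes and 651 CPM in NSC. The 8 progenitor markers, Nes and Sox2 among them, summed to 10462 CPM in MIM-Astrocytes, 2063 CPM in Astrocytes and 4593 CPM in NSC. Gene by gene, the higher sum in MIM-Astrocytes than in NSC was not shared by most of these markers. Of the 6 tested in MIM-Astrocytes over NSC, 1 was higher and 3 were lower by the size rule given below. Their median log2 ratio was -1.12. Oligodendrocyte lineage markers summed to 628 CPM in MIM-Astrocytes, 139.6 CPM in Astrocytes and 774 CPM in NSC, and neuronal markers to 82.8 CPM in MIM-Astrocytes, 67.7 CPM in Astrocytes and 292 CPM in NSC. Microglial, fibroblast, endothelial and erythroid lists each summed to at most 2.37 CPM in any library, and ependymal markers to at most 23.3 CPM. Malat1, a nuclear RNA, took 9.44% of UMIs in MIM-Astrocytes, 13.7% in Astrocytes and 26.9% in NSC. With 1 library per group no difference has a replicate check or a test, and the exact 95% intervals printed beside values reflect counting error alone.

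Ribosomal protein mRNAs took 8.40% of all UMIs in MIM-Astrocytes (8.39 to 8.41), 2.87% in Astrocytes (2.87 to 2.88) and 11.6% in NSC (11.59 to 11.63). The share was thus 2.93-fold higher in MIM-Astrocytes than in Astrocytes, and 4.04-fold lower in Astrocytes than in NSC. MIM-Astrocytes stood 1.38-fold below NSC. A share is relative, so a lower level of the family and a higher level of other RNA cannot be told apart. With Malat1 left out of the totals the shares were 9.28% in MIM-Astrocytes, 3.33% in Astrocytes and 15.9% in NSC, which keeps their order.

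Both subunits moved together. The large subunit genes took 4.64% of UMIs in MIM-Astrocytes, 1.61% in Astrocytes and 6.25% in NSC, and the small subunit genes 3.76% in MIM-Astrocytes, 1.26% in Astrocytes and 5.36% in NSC. The share was 2.89-fold higher in MIM-Astrocytes than in Astrocytes for the large subunit and 2.97-fold higher for the small subunit. Within the family the large subunit held 55.3% of UMIs in MIM-Astrocytes, 56.0% in Astrocytes and 53.9% in NSC. The 9 genes with -ps symbols took at most 0.00905% of UMIs in any library.

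In MIM-Astrocytes against Astrocytes, the question was how the family differed between the library in MIM and the library in astrocyte medium. Every member that reached 50 CPM was higher in MIM-Astrocytes, though for Rpl7l1 the difference was within counting error. By the size rule, a log2 ratio (pseudocount 1 CPM) of at least 1 in size at 50 CPM or more in either library, 61 of 81 members were higher and 0 were lower. Among all 2895 genes at that level, 14.7% were higher and 17.5% were lower. The median log2 ratio was 1.65 over the members and -0.07 over all genes, with 1.37 for the 49 large subunit members and 1.74 for the 32 small subunit members.

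The largest ratios belonged to small proteins. Rps28 (ENSMUSG00000067288), a protein of the small subunit head beside the mRNA exit channel, stood at 296 CPM in MIM-Astrocytes (291 to 300.3), 24.3 CPM in Astrocytes (23.0 to 25.7) and 1214 CPM in NSC (1196 to 1232). It was 12.2-fold higher in MIM-Astrocytes than in Astrocytes (11.5 to 12.9), a log2 ratio of 3.55, and none of the 3 intervals overlapped. Rpl39, which lines the exit of the peptide tunnel, stood at 1294 CPM in MIM-Astrocytes, 157 CPM in Astrocytes and 1849.9 CPM in NSC, 8.27-fold higher in MIM-Astrocytes than in Astrocytes (8.07 to 8.46). Rps29, a zinc-binding protein of the small subunit head, stood at 986 CPM in MIM-Astrocytes, 131 CPM in Astrocytes and 1310.2 CPM in NSC, a ratio of 7.56-fold between the astrocyte libraries (7.36 to 7.75). Rpl41, a very short peptide that bridges the subunits, stood at 2248 CPM in MIM-Astrocytes, 315 CPM in Astrocytes and 2649 CPM in NSC, a ratio of 7.14-fold (7.02 to 7.26). All 4 had their lowest level in Astrocytes. Rplp2, a stalk protein that recruits translation factors, stood at 1859 CPM in MIM-Astrocytes, 263 CPM in Astrocytes and 2076 CPM in NSC. Rpl36a stood at 683 CPM in MIM-Astrocytes, 95.4 CPM in Astrocytes and 1235 CPM in NSC, but 100% of the windows at its transcript's end are shared with 2 other genes, so its reads may be split with those.

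The smallest ratios belonged to large proteins. Rpl7l1, a relative of Rpl7 that acts in large subunit assembly, stood at 110.1 CPM in MIM-Astrocytes (107 to 113), 109 CPM in Astrocytes (107 to 112) and 44.7 CPM in NSC (41.4 to 48.3). Its intervals overlapped between the astrocyte libraries, and NSC stood below both. Rpl5, which carries 5S rRNA and restrains Mdm2 when it is free of ribosomes, stood at 345 CPM in MIM-Astrocytes, 266 CPM in Astrocytes and 376 CPM in NSC, a ratio of 1.30-fold between the astrocyte libraries (1.27 to 1.33). Rps3, at the mRNA entry channel, stood at 811 CPM in MIM-Astrocytes, 591 CPM in Astrocytes and 940.1 CPM in NSC. Rps6, the substrate of S6 kinase downstream of mTOR, stood at 230.1 CPM in MIM-Astrocytes, 148 CPM in Astrocytes and 183 CPM in NSC. For Rps6 the level in MIM-Astrocytes was above that in NSC. Rpl7 and Rpl3 had log2 ratios of 0.38 and 0.46, with 68.7% and 72.0% of their end windows shared with other genes. The members nearest the size rule were Rpl6 at 1.01, just inside, and Rps4x at 0.99, just outside.

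In Astrocytes against NSC, 1 of 81 members was higher (Rpl7l1) and 65 were lower. Among all 3192 genes at 50 CPM in either library, 31.2% were higher and 22.9% were lower. The median log2 ratio was -2.02 over the members and 0.38 over all genes, with -2.12 for the large and -2.00 for the small subunit. Rps28 had the lowest ratio, 49.9-fold lower in Astrocytes (47.1 to 53.0). Rpl37, a small zinc-binding protein of the large subunit, stood at 1647 CPM in MIM-Astrocytes, 249 CPM in Astrocytes (245 to 254) and 6418 CPM in NSC (6377 to 6459), and was 25.8-fold lower in Astrocytes than in NSC (25.3 to 26.2). Rpl35, at the tunnel exit, was 14.5-fold lower in Astrocytes, Rpl36a had a log2 ratio of -3.68, Rps27 was 13.0-fold lower and Rps26 was 12.3-fold lower. Of these, Rpl35 shares 95.3% and Rpl36a and Rps27 share 100% of their end windows with other genes. Because the Astrocytes library enters this comparison and the one with MIM-Astrocytes, these sets of ratios are not independent.

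Few members were as high in Astrocytes as in NSC. Rpl7l1 was 2.45-fold higher in Astrocytes (2.26 to 2.66), and Rpl3 was at 480 CPM in MIM-Astrocytes, 347 CPM in Astrocytes and 254 CPM in NSC, a log2 ratio of 0.45 that did not meet the rule. Rps6, Rpl8, Rpl15 and Rpl5 had log2 ratios of -0.31, -0.37, -0.47 and -0.49. Rpl8, beside the peptidyl transferase centre, stood at 883 CPM in MIM-Astrocytes, 554 CPM in Astrocytes and 717 CPM in NSC. Nearest the size rule were Rplp0, the base of the stalk, at -1.02 and Rps9 at -0.91.

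In MIM-Astrocytes against NSC the family differed less than in the comparisons with Astrocytes, and 60 of 81 members had a log2 ratio below 0. With each scaling given here the members' median stood below that of all genes. By the size rule 2 of 81 members were higher (Rpl7l1 and Rps27l) and 14 were lower, while 20.3% of all 2830 genes were higher and 16.2% were lower. The median log2 ratio was -0.28 over the members and 0.29 over all genes with library totals. With edgeR's TMM factors the members' median became 0.12, so its sign depends on the scaling, while over the same 2830 genes the median moved by 0.40. By TMM 4 members were higher and 6 lower, against 39.3% and 8.47% of the 2856 genes then at 50 CPM, whose median was 0.77. With Malat1 left out of the totals the members' median was -0.62, with 0 higher and 24 lower, against 9.84% and 24.9% of 3345 genes, whose median was -0.16.

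The lowest ratios against NSC belonged to Rps28, 4.11-fold lower in MIM-Astrocytes (4.02 to 4.20), Rpl29, 3.97-fold lower (3.82 to 4.13), and Rpl37, 3.90-fold lower (3.86 to 3.93). Rpl27 and Rps27 had log2 ratios of -1.45 and -1.42. Rpl13a, known for translational silencing in inflamed human cells, stood at 50.8 CPM in MIM-Astrocytes, 22.8 CPM in Astrocytes and 152 CPM in NSC. Rps27l, a paralog of Rps27 that p53 induces, stood at 1066 CPM in MIM-Astrocytes (1057 to 1075), 206 CPM in Astrocytes and 531 CPM in NSC (519 to 542), 2.01-fold higher in MIM-Astrocytes than in NSC (1.96 to 2.06). Rpl7l1 was 2.46-fold higher in MIM-Astrocytes (2.27 to 2.67). Rpl3, Rpl19, Rps15 and Rpl9 followed with log2 ratios of 0.91, 0.63, 0.50 and 0.42. Rps20 at -1.03 and Rpl34 at -0.98 lay nearest the rule on the lower side.

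**Figure D1:**
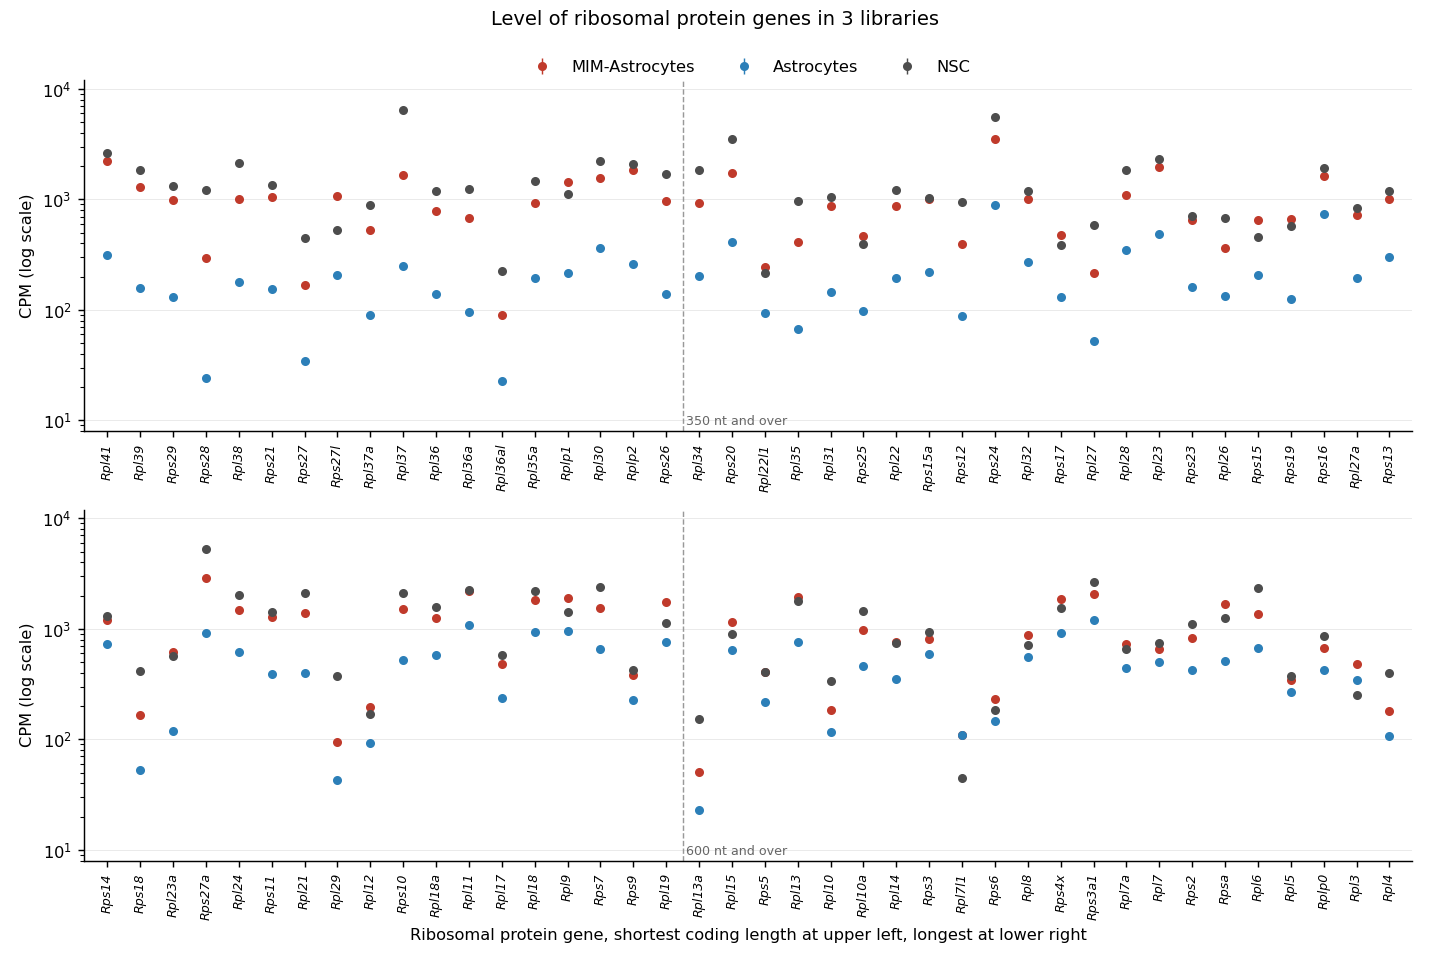
Level of the members that reached 50 CPM in at least 1 library (1 of the 81 is not drawn), in CPM on a log scale, ordered by coding length across both rows, with a point for each library (MIM-Astrocytes red, Astrocytes blue, NSC grey) and exact 95% counting intervals, mostly smaller than the points. Among the shortest members at upper left the Astrocytes points lie far below the other two, as for Rps28 at 24.3 CPM against 296 CPM in MIM-Astrocytes and 1214 CPM in NSC, and toward the longest at lower right the 3 libraries mostly come closer together.

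The members with the most UMIs, by the mean CPM of the 3 libraries, included Rps24, Rps27a, Rpl37, Rps3a1 and Rps20, and all 5 stand in the plot of levels by gene with Astrocytes lowest. Rps24, which takes part in maturation of 18S rRNA, stood at 3541 CPM in MIM-Astrocytes, 883 CPM in Astrocytes and 5555 CPM in NSC. Rps27a, made as a fusion with ubiquitin, stood at 2860 CPM in MIM-Astrocytes, 911 CPM in Astrocytes and 5261 CPM in NSC. Rps3a1 stood at 2048 CPM in MIM-Astrocytes, 1209 CPM in Astrocytes and 2656 CPM in NSC, and Rps20, of the small subunit head, at 1720.4 CPM in MIM-Astrocytes, 415 CPM in Astrocytes and 3509 CPM in NSC. UMIs count molecules captured at their ends and were not divided by length, so CPM is compared here between libraries and not between genes.

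The size of a member's difference followed the length of its coding sequence more than its subunit. The 18 tested members with a coding sequence under 350 nt had a median log2 ratio of 2.72 in MIM-Astrocytes over Astrocytes, the 40 from 350 to 600 nt had 1.69, and the 23 over 600 nt had 0.76. By the size rule 18 of 18, 36 of 40 and 7 of 23 were higher, against 14.7% of all genes. Among genes outside the family 42.1% were higher under 250 nt and 29.5% from 250 to 350 nt. From 450 to 600 nt 9.47% of them were higher, and from 600 to 900 nt 7.86%. In Astrocytes over NSC the medians were -3.28, -2.12 and -1.02, with 18 of 18, 35 of 40 and 12 of 23 lower. In MIM-Astrocytes over NSC the members' medians were -0.64, -0.26 and -0.12.

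Across the 81 members, Spearman's rho between coding length and log2 ratio was -0.89 in MIM-Astrocytes over Astrocytes, 0.78 in Astrocytes over NSC and 0.33 in MIM-Astrocytes over NSC. These correlations are across genes, which share their libraries and are not independent, and are given as descriptions. In MIM-Astrocytes over Astrocytes rho was -0.92 for the large and -0.84 for the small subunit. For the 53 members with under 50% of end windows shared with other genes it was -0.90. Against annotated transcript length, which includes long alternative ends for some members, rho was -0.50.

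**Figure D2:**
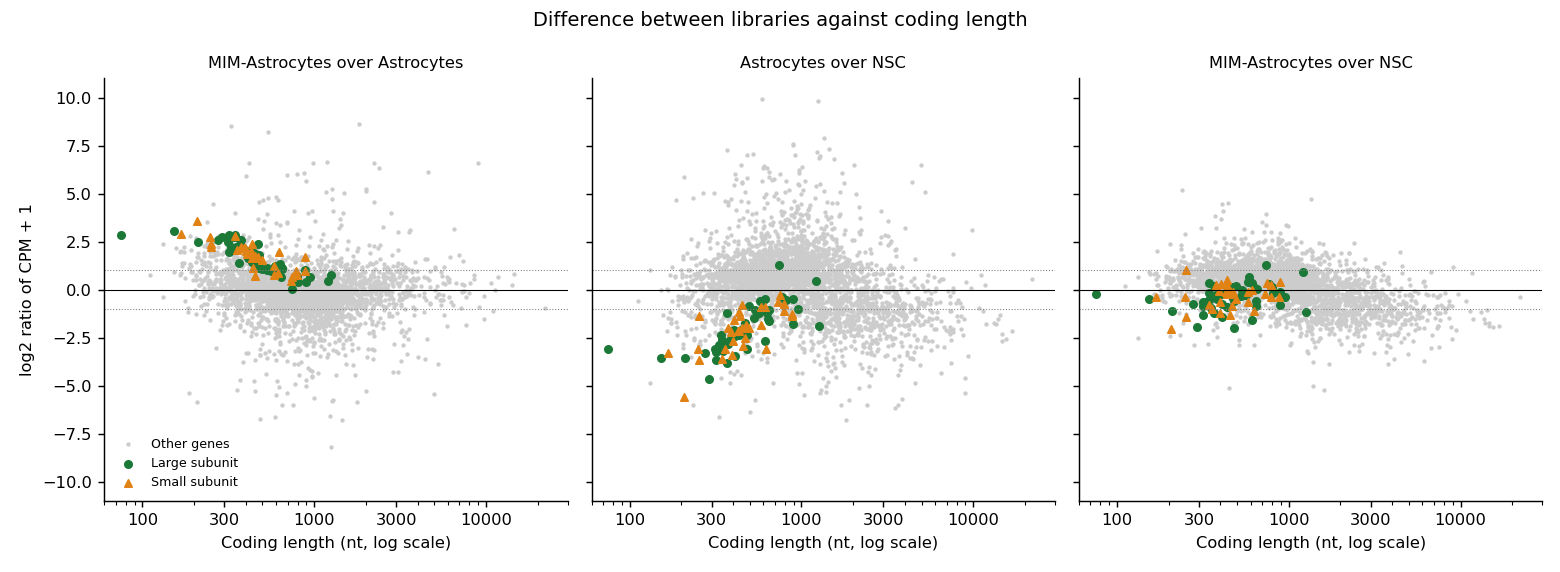
Log2 ratio of CPM + 1 against coding length on a log scale, for large subunit members (green circles), small subunit members (orange triangles) and all other genes at 50 CPM in either library (grey points), with MIM-Astrocytes over Astrocytes at left, Astrocytes over NSC in the middle and MIM-Astrocytes over NSC at right. Dotted lines mark log2 ratios of 1 and -1. Members slope down from 2.83 for Rpl41 toward 0.75 for Rpl4 at left and slope up in the middle. At right they lie mostly between the dotted lines, and their median there changes sign with TMM scaling.

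Some members left this pattern. Rpsa, the laminin-binding small subunit protein (885 nt), had 1.70 in MIM-Astrocytes over Astrocytes. Rps14 (453 nt) had 0.70 and -0.82, the smallest in its class for MIM-Astrocytes over Astrocytes. These 2 were picked after their values were seen. In UMIs, members under 350 nt took 1.86% of the library in MIM-Astrocytes, 0.298% in Astrocytes and 3.01% in NSC, 6.24-fold higher in MIM-Astrocytes than in Astrocytes and 10.1-fold lower in Astrocytes than in NSC. Members over 600 nt took 2.24% in MIM-Astrocytes, 1.09% in Astrocytes and 2.87% in NSC, which are 2.05-fold and 2.64-fold differences. The short members thus made up 22.1% of the family's UMIs in MIM-Astrocytes, 10.4% in Astrocytes and 25.9% in NSC.

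Very short genes outside the family also differed, although over all other genes, many of them longer than any member, length and ratio were related otherwise. Of 22 other genes with an annotated transcript under 500 nt, 19 were higher in MIM-Astrocytes than in Astrocytes (median log2 ratio 1.74), against 14.7% of all genes. In Astrocytes over NSC 16 were lower and 1 was higher (median -1.45), against 22.9% and 31.2% of all genes. Among other genes with a coding sequence under 250 nt the medians were 0.89 and -0.39, against 2.87 and -3.44 for the 6 members of that length. Of these other genes 40 of 95 were higher and 7 lower in MIM-Astrocytes over Astrocytes. In Astrocytes over NSC 18 of 94 were higher and 30 lower. Over all other genes with a coding length, rho was -0.17 in MIM-Astrocytes over Astrocytes (2784 genes), -0.24 in Astrocytes over NSC (3073 genes) and -0.48 in MIM-Astrocytes over NSC (2714 genes), and in the last 2 comparisons its sign was opposite to that of the members (0.78 and 0.33). Whether capture of short molecules differed between the libraries was not tested.

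Members grouped by their place in the ribosome are read against 61 of 81 members and 14.7% of all genes higher in MIM-Astrocytes than in Astrocytes. All 8 proteins of the tunnel exit (Rpl17, Rpl19, Rpl22, Rpl23a, Rpl26, Rpl31, Rpl35 and Rpl39) were higher in MIM-Astrocytes than in Astrocytes. They had a median log2 ratio of 2.26 and a median coding length of 409.5 nt. Of 14 proteins of the small subunit head 12 were higher, with a median of 1.75, near the family's 1.65. Of the 4 stalk proteins 3 were higher, Rplp1 at 2.72, Rplp2 at 2.82 and Rpl12 at 1.07, while Rplp0 (951 nt) had 0.65. Of the 5S particle, Rpl11 at 1.02 met the rule and Rpl5 at 0.37 did not.

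Paralog forms are set beside their standard partners. Rps27l was at 1066 CPM in MIM-Astrocytes, 206 CPM in Astrocytes and 531 CPM in NSC, whereas Rps27 was at 168 CPM in MIM-Astrocytes, 34.7 CPM in Astrocytes and 451 CPM in NSC. Between the astrocyte libraries the log2 ratios were close, 2.37 for Rps27l and 2.24 for Rps27, both of 252 nt coding length. In MIM-Astrocytes over NSC they were 1.01 for Rps27l and -1.42 for Rps27. All of the end windows of Rps27 are shared with other genes, so its count is uncertain. Rpl22l1, whose protein can stand in for Rpl22, was at 243 CPM in MIM-Astrocytes, 93.1 CPM in Astrocytes and 216 CPM in NSC. Its log2 ratio between the astrocyte libraries was 1.37, against 2.15 for Rpl22, and 54.5% of the end windows of Rpl22l1 are shared with 1 other gene. Rpl36al was at 90.0 CPM in MIM-Astrocytes, 22.7 CPM in Astrocytes and 225 CPM in NSC. Its log2 ratio between the astrocyte libraries was 1.94, against 2.83 for Rpl36a. Of their end windows 63.0% for Rpl36al and 100% for Rpl36a are shared with 2 other genes each, so both counts are uncertain. Rps27rt, below the CPM minimum, was at 3.65 CPM in MIM-Astrocytes, 1.40 CPM in Astrocytes and 13.1 CPM in NSC. It shares 86.3% of its end windows with 3 other genes.

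Ribosomal proteins outside the naming rule stood in the same order. Fau, which carries the small subunit protein S30, was at 1689.6 CPM in MIM-Astrocytes, 647 CPM in Astrocytes and 2709 CPM in NSC. Rack1, a scaffold on the small subunit, had a log2 ratio of 0.40 in MIM-Astrocytes over Astrocytes and -1.28 in Astrocytes over NSC. Among 17 tested mRNAs outside the family that are known to carry a TOP tract, 3 were higher in MIM-Astrocytes than in Astrocytes, Hnrnpa1 and Fau among them, and 0 were lower, where 14.7% and 17.5% of all genes were, so the share that was higher was near that of all genes. Over the list the median log2 ratio was 0.24. Eef1a1, Eef2 and Pabpc1, elongation factors and the poly(A)-binding protein, had log2 ratios of -0.28, -0.52 and -0.10 there, and in Astrocytes over NSC -1.42, -2.65 and -1.58. There 8 of 18 were lower and 0 higher, against 22.9% and 31.2% of all genes, and the median was -0.97.

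In other parts of the translation machinery few listed genes reached 50 CPM, so the counts are small. They stand beside 14.7% of all genes higher and 17.5% lower in MIM-Astrocytes over Astrocytes. Of 33 initiation factors 19 were tested. Of these, 3 were higher in MIM-Astrocytes than in Astrocytes (Eif3j1, Eif2s2 and Eif3c), 0 were lower and the median was 0.08. Of 49 ribosome assembly genes 7 were tested and 2 were higher (Nhp2 and Nop10). Of 18 genes of RNA polymerase I, which makes rRNA, 6 were tested and 1 was higher (Polr2k). In the mTOR list 5 of 28 genes were tested. Eif4ebp1, the repressor of cap-dependent initiation, was higher, at 143 CPM in MIM-Astrocytes, 53.8 CPM in Astrocytes and 60.9 CPM in NSC. Of the 11 genes of the Myc family list 2 were tested. Max, the shared partner of Myc proteins, was lower, at 26.1 CPM in MIM-Astrocytes, 66.4 CPM in Astrocytes and 34.8 CPM in NSC. In Astrocytes over NSC 22.9% of all genes were lower and 31.2% higher. Of 11 tested assembly genes 5 were lower and 1 higher (median -0.62), and of 8 polymerase I genes 4 were lower and 0 higher (median -0.79). Of 21 initiation factors 2 were lower and 1 higher, and of 7 mTOR list genes 2 were lower and 3 higher. The p53 pathway responds to unassembled ribosomal proteins, and 5 of 10 listed genes were tested in MIM-Astrocytes over Astrocytes. There 0 passed the rule in either direction. In MIM-Astrocytes over NSC 3 of 5 tested were higher, against 20.3% of all genes (Cdkn1a at 2.09, Ccng1 at 1.34 and Phlda3 at 1.26). Only 3 of the 10 reached 50 CPM in Astrocytes or NSC. Some of the 5 thus passed the filter only through MIM-Astrocytes, which favours a higher count.

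Mitochondrial ribosomal proteins build the separate ribosome of mitochondria. In MIM-Astrocytes over Astrocytes 8 of 64 tested were higher and 0 lower, against 14.7% and 17.5% of all genes, and their median log2 ratio was 0.29. In Astrocytes over NSC 21 of 62 were higher and 4 lower, against 31.2% and 22.9% of all genes, so the share that was higher was near that of all genes. The median was 0.74, where all genes had 0.38 and the cytosolic members -2.02. Their median coding length was 549 nt, and genes outside the cytosolic family of 450 to 600 nt had a median of 0.76, with 40.0% higher and 7.84% lower. In MIM-Astrocytes over NSC 33 of 62 were higher and 0 lower, against 20.3% and 16.2% of all genes, and the median was 1.04. There genes outside the cytosolic family of 450 to 600 nt had a median of 0.71, with 31.1% higher and 4.27% lower. Mrps6 was at 675 CPM in MIM-Astrocytes, 1347 CPM in Astrocytes and 255 CPM in NSC. Mrpl52 was at 392 CPM in MIM-Astrocytes, 76.8 CPM in Astrocytes and 491 CPM in NSC, an order like that of the cytosolic members.

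The 8 other genes whose levels in the 3 libraries lay closest to those of the summed family were Slc39a10, Gm10260, Marcksl1, Cdk2ap1, Pet100, Ubap2, Syt11 and U2af2, ranked among 3238 genes by Euclidean distance of centred log2 CPM. With only 3 libraries this likeness is weak. Gm10260 has the same coding length as Rps18 (456 nt), a member that shares 55.5% of its end windows with 4 other genes. Whether reads of Gm10260 are split with those of Rps18 was not tested. Marcksl1 was at 302 CPM in MIM-Astrocytes, 109.8 CPM in Astrocytes and 446 CPM in NSC. Cdk2ap1, a binding partner of Cdk2, was at 116 CPM in MIM-Astrocytes, 40.9 CPM in Astrocytes and 173 CPM in NSC.

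In single cells the family's share separated the Astrocytes library from the others. Each cell was thinned at random to 1000 UMIs, which left out 973 MIM-Astrocytes, 351 Astrocytes and 1457 NSC that were shallower. The median share was 8.60% in 13991 MIM-Astrocytes, 2.80% in 9467 Astrocytes and 11.4% in 7688 NSC. Unthinned medians were 8.75% in MIM-Astrocytes, 2.83% in Astrocytes and 11.4% in NSC. The middle 50% of cells lay from 6.60 to 10.6% in MIM-Astrocytes, from 2.30 to 3.30% in Astrocytes and from 9.0 to 13.8% in NSC. A share over 5% was found in 90.3% of MIM-Astrocytes, 1.14% of Astrocytes and 97.6% of NSC. A median of 46 members was detected per MIM-Astrocyte, 22 per Astrocyte and 50 per NSC.

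Cells varied by more than counting error in each library. The SD of the share was 3.15 times the binomial SD in MIM-Astrocytes, 1.52 times in Astrocytes and 3.55 times in NSC. The large and small subunit shares of a cell rose and fell together, with rho over cells of 0.79 in MIM-Astrocytes, 0.32 in Astrocytes and 0.82 in NSC, as a description of cells that share a library.

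The share moved with depth in MIM-Astrocytes. Its unthinned median fell to 7.61% in cells with 4000 to 8000 UMIs, against 8.99% at 2000 to 4000 and 9.84% at 1000 to 2000, and was 8.15% in the 249 cells above 8000 UMIs. Over MIM-Astrocytes rho between thinned share and UMIs was -0.29. In Astrocytes it was 2.57%, 2.84% and 2.82% in the same bins from low to high, and in NSC 11.3%, 11.6% and 11.97%, with rho of 0.0043 and 0.017. At matched depth, over 5 bins, the median was 2.51-fold to 3.84-fold higher in MIM-Astrocytes than in Astrocytes and 2.83-fold to 4.44-fold lower in Astrocytes than in NSC. The 351 Astrocytes with 500 to 1000 UMIs stood apart at a median of 4.02%, with 6.41% of UMIs from Malat1, against 13.4% from Malat1 in Astrocytes of 4000 to 8000 UMIs.

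**Figure D3:**
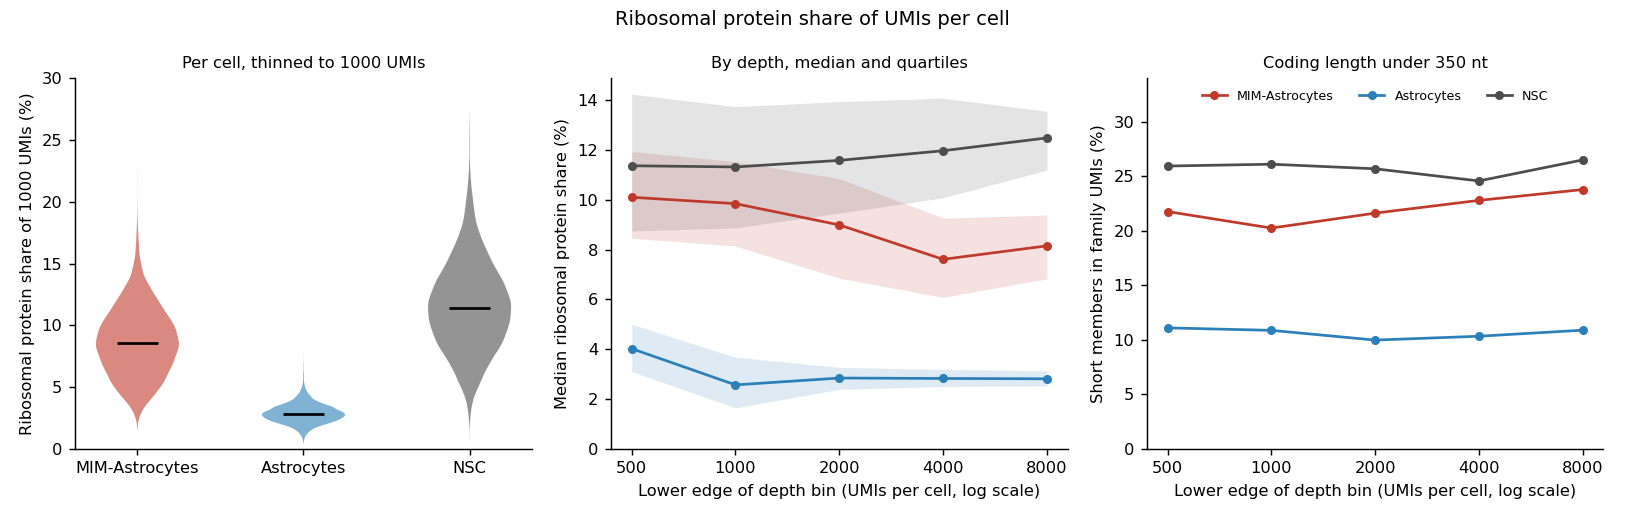
Ribosomal protein share of UMIs per cell. At left, the distribution in cells thinned to 1000 UMIs with medians as bars (8.60% in MIM-Astrocytes, 2.80% in Astrocytes and 11.4% in NSC). In the middle, medians with shaded quartiles by bins of UMIs per cell. At right, the part of the family's UMIs from members with a coding sequence under 350 nt, which lies between 20.3 and 23.8% in MIM-Astrocytes, between 9.98 and 11.1% in Astrocytes and between 24.6 and 26.5% in NSC at every depth.

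The mix of short and long members differed between libraries by more than it did across depths. Across depth bins, short members held 20.3 to 23.8% of the family's UMIs in MIM-Astrocytes, 9.98 to 11.1% in Astrocytes and 24.6 to 26.5% in NSC. Between the lowest and the highest quartile of cells by share, it was 23.3% and 20.6% in MIM-Astrocytes, 10.3% and 10.3% in Astrocytes, and 26.8% and 25.6% in NSC. Thus MIM-Astrocytes with a median share of 5.30%, in the lowest quartile, had 23.3% short members, while Astrocytes with a median share of 3.60%, in the highest, had 10.3%.

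Cells with transcripts of cell division genes had a higher share in MIM-Astrocytes and NSC. Of 43 listed S phase genes 8 were tested, and 8 were higher in MIM-Astrocytes than in Astrocytes. Of 52 listed G2/M genes 25 were tested and 21 were higher, where 14.7% of all genes were. No S phase gene reached 50 CPM in Astrocytes or NSC, so the 8 passed the filter only through MIM-Astrocytes. In Astrocytes or NSC 11 G2/M genes reached it, so most of the 25 did the same. Both counts thus depend on the filter. In thinned cells, those with UMIs of at least 2 of 95 S or G2/M phase genes were set against those with none, with the list genes left out of the totals. The pooled share was 9.20% in 8069 MIM-Astrocytes with such genes (9.18 to 9.22) and 7.79% in 2496 with none (7.76 to 7.83). In NSC it was 12.1% in 3106 cells with such genes (12.07 to 12.14) and 10.9% in 1922 with none (10.9 to 10.99). In Astrocytes it was 2.89% in 2723 cells with such genes (2.87 to 2.91) and 2.84% in 3099 with none (2.82 to 2.86). These are ranges and not cell types, and cells with exactly 1 such gene, 3426 MIM-Astrocytes, 3645 Astrocytes and 2660 NSC, were kept apart.

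In Astrocytes 28.8% of cells met the mark, but 66 of the 95 genes were under 5 CPM there and summed to 70.2 CPM, against 1012 CPM for the others. With these 66 genes alone, chosen after seeing the data, 4196 MIM-Astrocytes, 25 Astrocytes and 732 NSC met it. The share was then 9.39% against 8.27% with none in MIM-Astrocytes, 2.84% against 2.87% in Astrocytes, a change of sign within the counting interval of the 25 cells (2.64 to 3.05), and 13.1% against 11.3% in NSC.

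**Figure D4:**
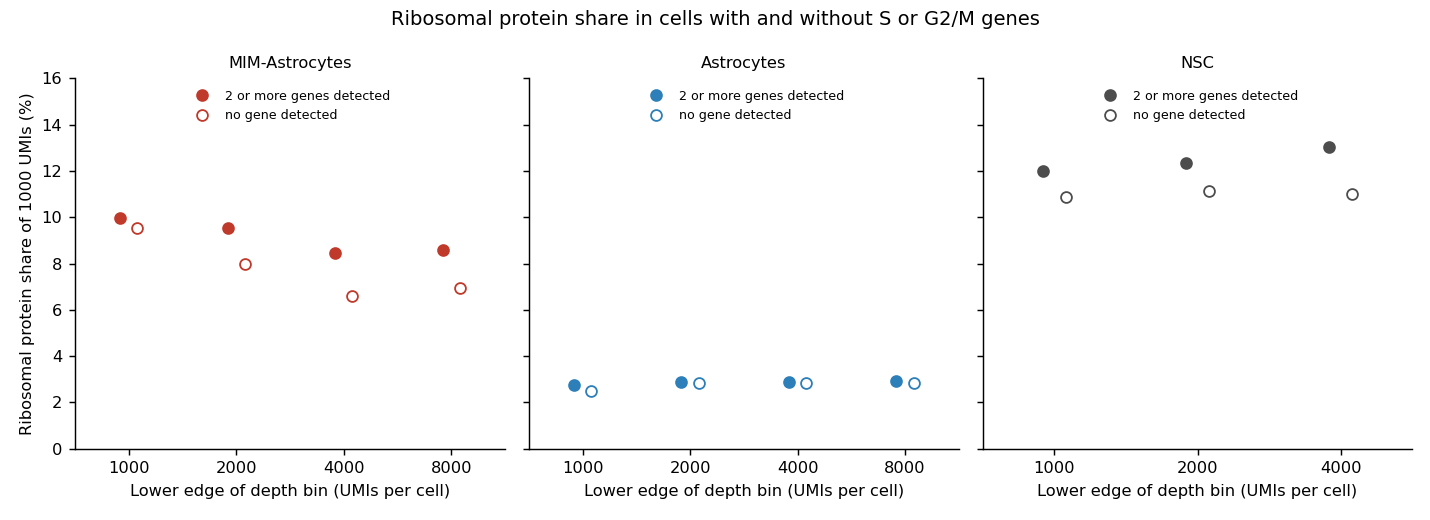
Pooled ribosomal protein share of 1000 UMIs in cells with at least 2 S or G2/M phase genes (filled) and with none (open), by bins of UMIs per cell before thinning, leaving out bins with under 20 cells in either range. In MIM-Astrocytes filled points lie above open points in all 4 bins (9.55% against 7.98% at 2000 to 4000 UMIs), as they do in the 3 NSC bins shown, and in Astrocytes the points of both kinds lie close (2.89% against 2.84% at 2000 to 4000 UMIs).

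Within depth bins the difference kept its direction in MIM-Astrocytes, as 9.96% against 9.53% at 1000 to 2000 UMIs and 8.45% against 6.60% at 4000 to 8000. In NSC it was 12.003% against 10.9% at 1000 to 2000 UMIs and 12.3% against 11.2% at 2000 to 4000, and above 8000 UMIs, where only 7 cells had none, 12.3% against 13.1%. Malat1 moved with the same cells, with 8.22% of UMIs in MIM-Astrocytes that had such genes against 12.4% in those with none, and 25.1% against 30.0% in NSC. Its part in the difference was not tested. The marker and division gene sums that follow were scaled to the UMIs outside the family and Malat1. They are not CPM of all UMIs and cannot be set beside the library sums. Astrocyte markers summed to 645 in the highest and 1918 in the lowest quartile of MIM-Astrocytes by share. The same sums were 2175 and 3069 in Astrocytes, and 736 and 1569.7 in NSC. Progenitor markers summed to 10578 in the highest and 13636 in the lowest quartile of MIM-Astrocytes, 2496 and 2262 in Astrocytes, and 7784 and 6757 in NSC. From the lowest to the highest quartile of MIM-Astrocytes, S and G2/M genes summed to 3579, 6856, 7317 and 5868. In the highest and lowest quartiles they summed to 1364 and 1429 in Astrocytes, and to 4166 and 2875 in NSC. The part of these genes was not tested either.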

How the data were processed

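Deposited matrices hold whole UMI counts per gene and barcode, produced by the authors' Cell Ranger 3.0.2 run on the prebuilt mm10 reference, per the labels' protocols. Seurat 3.1.1 is also named in the submitters' processing notes, with no role given. Barcodes with at least 200 genes and at most 20% mitochondrial UMIs were kept. Counts were summed per library and divided by its total (CPM), and log2 ratios used a pseudocount of 1 CPM. With 1 library per group a fixed rule of size replaced a test. Poisson and binomial intervals were exact (95%). Doublets were not called. Coding lengths came from GENCODE vM21, matched by ID for 94 of 94 members, 91 with a coding sequence. Shared ends were 90-base windows in the last 300 bases of a transcript that also occur in another gene's transcript. Sequences came from RefSeq (GRCm38.p6).

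Members, lists and tests were chosen with earlier results of these data known. Named members were the 6 with the highest mean CPM, the 6 highest and 6 lowest log2 ratios per comparison, paralog forms, and those nearest the size rule. Some of the genes this rule or the lists take are not reported here. Of the other lists up to 3 of the largest ratios are named, with Eef1a1, Eef2, Pabpc1, Max and Mrps6 chosen after their values were seen. The call rule and the thinning were checked on simulated counts. Alternatives changed cell filters, scaling (edgeR 4.0.16 TMM in R 4.3.3), pseudocount, filter, thinning depth and division rule. Tables and figures were made in Python 3.11.15 with pandas 2.3.3, numpy 2.4.6, matplotlib 3.10.9 and scipy 1.17.1, with seed 1. Library totals of 14689259 to 50906724 UMIs put counting error far below most differences reported, but say nothing of variation between cultures.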

Additional observations from a re-analysis of the deposited data

How the results depend on the processing

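No paired analysis was possible because each group is 1 library. Family shares changed by less than counting error with all barcodes, at most 10% mitochondrial UMIs, or no -ps symbols. Leaving Malat1 out of the totals gave 9.28% in MIM-Astrocytes, 3.33% in Astrocytes and 15.9% in NSC, and weighing each cell the same gave 8.80%, 2.91% and 11.5%. With cells of at least 1000 UMIs, chosen after seeing the data, the MIM-Astrocytes and Astrocytes shares were 8.38% and 2.87%. Thinning to 2000 UMIs gave 8.45% in MIM-Astrocytes and 11.8% in NSC.

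In MIM-Astrocytes over Astrocytes and Astrocytes over NSC no scaling, pseudocount, filter or cell set moved a median beyond its interval or a count by over 1.5 times. Over the genes tested with library totals, TMM shifted the median by 0.24, 0.16 and 0.40 in the 3 comparisons. In MIM-Astrocytes over NSC it turned the members' median to 0.12, with 4 higher and 6 lower. Totals without Malat1 gave -0.62, with 0 higher and 24 lower, and 1 was higher with a pseudocount of 10 CPM, and also when mitochondrial and ribosomal protein UMIs left the totals. Keeping only members over 600 nt, chosen after seeing the data, gave medians of 0.76, -1.02 and -0.12, with 7 higher, 12 lower, and 1 higher and 3 lower. Of 570 values for single named members, 524 kept their direction and side of the size rule, 46 crossed the rule or turned sign short of it, and 0 called values reversed.

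The division difference in MIM-Astrocytes was 1.40 percentage points, 1.60 with at least 3 genes, 1.77 at 2000 UMIs and 1.12 (chosen after seeing the data) with genes under 5 CPM in Astrocytes. In NSC it was 1.16, and 1.60, 1.05 and 1.78 under these settings. In Astrocytes it was 0.047, 0.099 at 2000 UMIs and -0.028 with genes under 5 CPM there. The causes of these changes were not tested. With 1 library per group, variation between cultures cannot be told apart from the groups, and 3′ UMIs of members with shared ends may be split with their copies.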
